A study of Mus musculus with 8 samples.

Results

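The genes described here are 10 phosphodiesterases that break down the second messengers cAMP and cGMP in brain: the 4 genes of the Pde4 family (Pde4a, Pde4b, Pde4c and Pde4d) and Pde1a, Pde1c, Pde2a, Pde3a, Pde8a and Pde8b. They were taken by name, as every array probe annotated to one of these symbols, which gave 36 probes for 10 genes out of 56605 probes and 37074 gene names on the array. RNA from dissected cerebral cortex together with striatum was hybridized, 1 mouse per array, for 4 male mice of the BTBRTF/ArtRbrc strain (BTBR/R) and 4 male C57BL/6J mice (B6). All were 4 months of age, apart from BTBR/R replicate 1 at 6 months. BTBR/R is an inbred subline of BTBR, a strain whose BTBR/J subline is used as a model of autism-like behaviour, and B6 is the reference inbred strain, so the groups differ across the whole genome and no single allele was manipulated. Cortex and striatum were measured as 1 piece of tissue, and a difference between strains cannot be placed in either region.

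Cyclic nucleotides are made by adenylyl and guanylyl cyclases and broken down by phosphodiesterases, so the local level of cAMP or cGMP follows from both. The Pde4 and Pde8 enzymes are selective for cAMP, the Pde1 enzymes are switched on by calcium and calmodulin and take both nucleotides, Pde2a hydrolyses both and is stimulated by cGMP, and Pde3a hydrolyses cAMP and is inhibited by cGMP. Each Pde4 gene has several promoters that give long and short isoforms with different N-terminal ends, so that probes at different places in a gene can read different transcripts.

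The probes are 60 bases long. They are numbered within each gene from the 5′ end of the gene, and their positions are those of the array annotation on mouse build mm9. The following 4 are shown because the results below turn on them. The Pde4d probe for cDNA clone AK032648 showed the largest strain difference among probes detected on all 8 arrays. Pde4b probe 3 was the only called member probe detected in a strain, and Pde4b probe 2 is its neighbour. The Pde8b probe for clone AK034510 is the only 1 of the 36 probes on the strand opposite to its gene. Capitals mark the polyadenylation hexamer AATAAA, searched as written on the probe strand.
Pde4d probe 1, chr13:109910773-109910832, plus strand: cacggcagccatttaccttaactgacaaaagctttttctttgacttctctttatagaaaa
Pde4b probe 2, chr4:102159988-102170395, plus strand: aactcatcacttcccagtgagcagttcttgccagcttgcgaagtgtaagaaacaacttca
Pde4b probe 3, chr4:102160592-102160651, plus strand: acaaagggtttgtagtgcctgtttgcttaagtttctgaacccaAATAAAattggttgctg
Pde8b probe 3, chr13:95802284-95802343, plus strand: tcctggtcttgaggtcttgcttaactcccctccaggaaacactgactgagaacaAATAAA
Pde4b probe 2 covers 10408 bases of the genome and therefore spans a splice junction, as do 2 further member probes, Pde4d probe 4 and the Pde8a probe. The AATAAA hexamer was present in 7 of the 36 member probes (19.4%) and in 9.77% of all probes on the array.

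Signals are given on the log2 scale as the scaled signal, in which each array's own 75th percentile is subtracted from its processed signals, and differences are BTBR/R minus B6. A probe was counted as detected where the scanner software marked its spot as well above background. In B6 mice 64.5% to 66.8% of probes passed, with a lowest scaled signal among them of -5.28 to -4.98, and in BTBR/R mice 53.5% to 57.2% passed, with a lowest scaled signal of -3.97 to -3.55. A dim probe could therefore pass on the B6 arrays and fail on the BTBR/R arrays at the same level, and for a probe detected in 1 strain only the fold is given as a bound. All 8 arrays were on 1 slide in 1 scan. The number that follows the slide number in the array barcode was 1 for every B6 array and 2 for every BTBR/R array. Effects of strain and of what this number stands for, such as the position on the slide, cannot be told apart. The p-values measure the spread among 4 mice per strain, and the number of arrays limits the precision.

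Of the 36 member probes, 23 from 8 genes were detected on all 8 arrays, 9 on some arrays and 4 on none. No probe of Pde3a or Pde8a was detected on all 8 arrays. With limma and a call at an adjusted p below 0.05 and at least 2-fold, 3 of 36 member probes (8.33%) were called, against 22.4% of all 56605 probes. These were Pde4b probe 3, lower in BTBR/R, and Pde4d probe 5 and Pde3a probe 1, higher in BTBR/R and detected on no array. Among probes detected on all 8 arrays none of the 23 was called by limma, against 2.20% of all such probes, and the methods' t-test also called 0. Unadjusted limma p-values fell below 0.05 for 11 of the 23, against 35.9% of all such probes, and no difference reached 2-fold. Among probes with detection in all 4 mice of B6 or of BTBR/R, 1 of 28 member probes was called, against 4.41%.

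**Figure D1:**
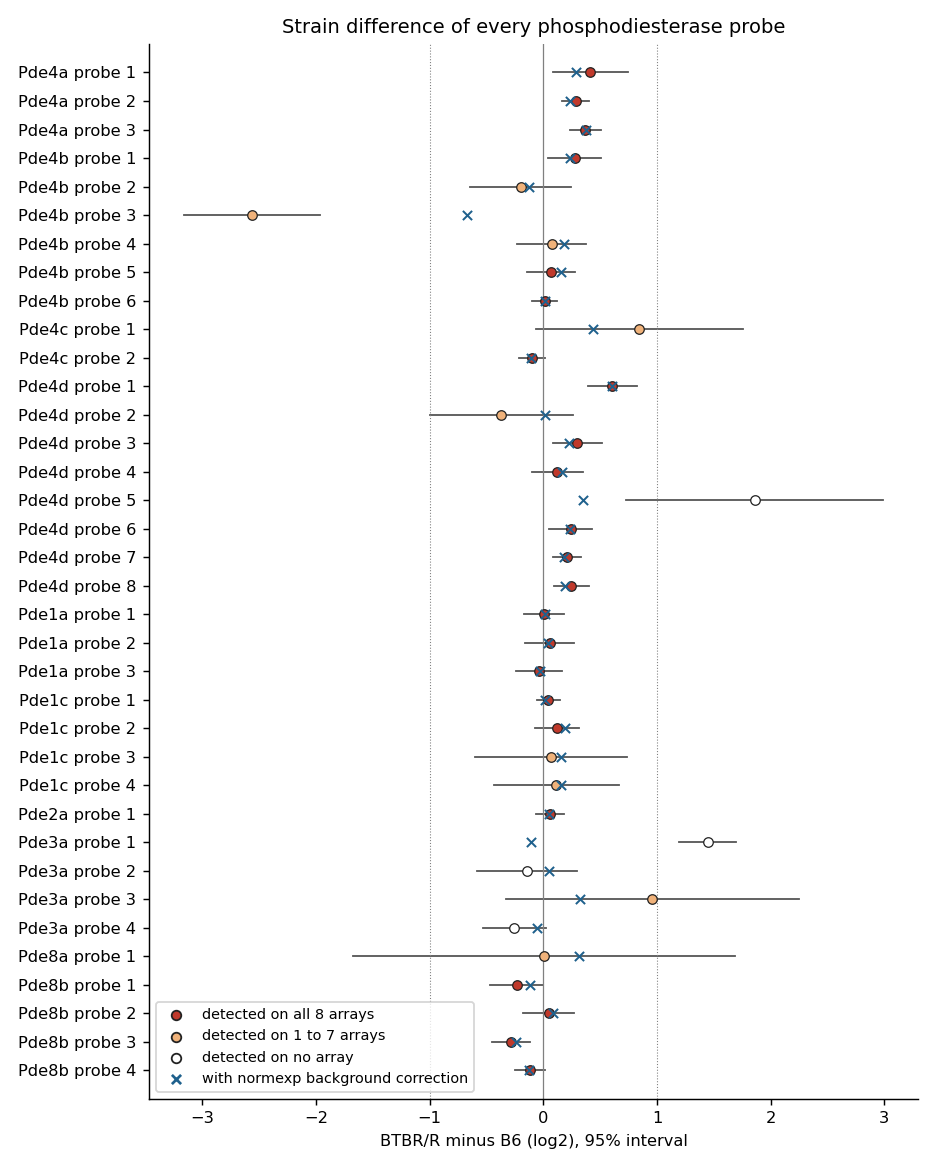
Strain difference (BTBR/R minus B6, log2) of all 36 phosphodiesterase probes, with 95% intervals from limma over 4 mice per strain; fill shows on how many arrays a probe was detected, crosses give the difference after normexp background correction, and dotted lines mark 2-fold. The 23 probes detected on all 8 arrays lie between -0.28 and 0.61, and the 3 differences past 2-fold with an adjusted p below 0.05 belong to probes that were not detected in BTBR/R.

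Smaller differences were present in the detected probes. At an adjusted p below 0.05 and any size, 7 of 23 detected member probes (30.4%) were higher in BTBR/R, against 13.0% of all probes detected on all 8 arrays, and 1 (4.35%) was lower, against 13.9%. The values of the 2 strains did not overlap for 9 of the 23 (39.1%), against 32.6% of all such probes. The 7 higher probes belong to Pde4a and Pde4d, and the lower probe is the opposite-strand probe of Pde8b. The median difference of the 23 probes was 0.06, and that of all probes detected on all 8 arrays was 0.00. The count of detected member probes past the adjusted p was 8. It was 5 without B6 replicate 2, with Pde8b probe 1 newly among them, and 4 with each array scaled by its median. Pde4a probes 2 and 3 and Pde4d probe 1 passed in each of these fits.

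**Figure D2:**
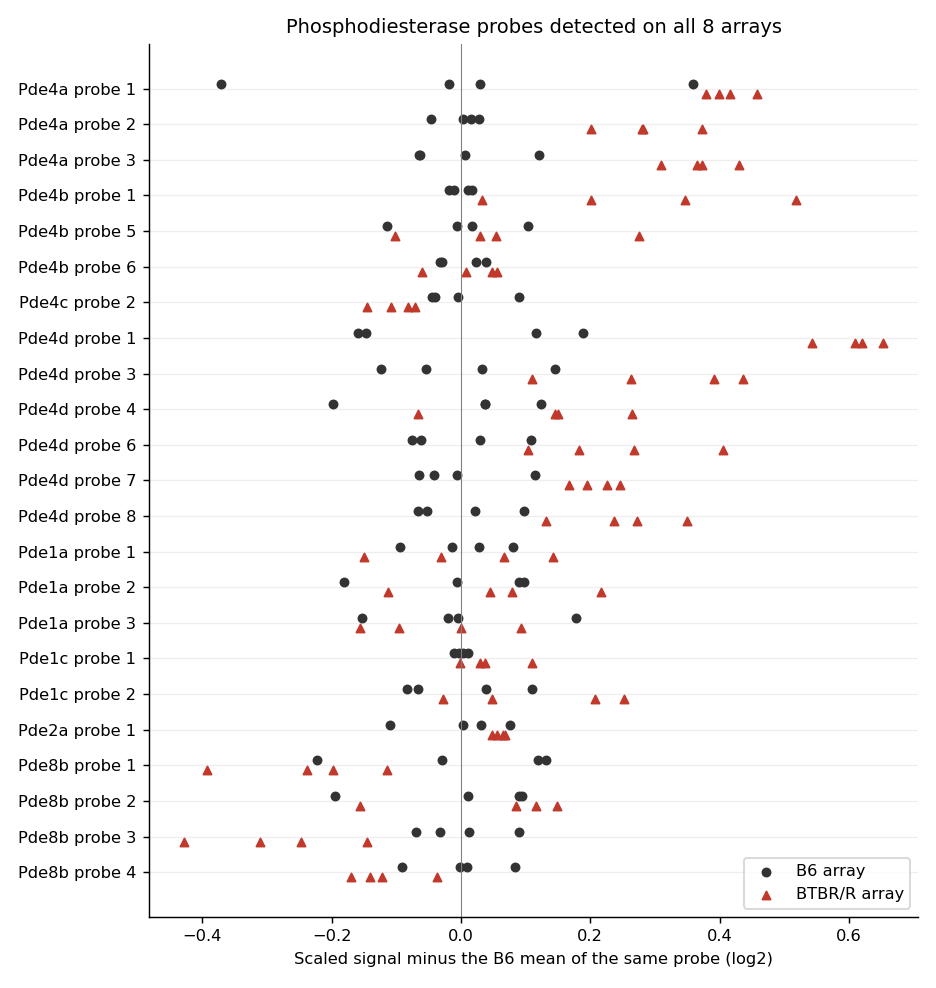
Scaled signal of each array minus the B6 mean of the same probe (log2), for the 23 phosphodiesterase probes detected on all 8 arrays; circles are B6 and triangles BTBR/R mice. All triangles lie to the right of all circles for the 3 Pde4a probes and for Pde4d probes 1, 7 and 8, and strains overlap for every probe of Pde1a, Pde1c and Pde2a.

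Pde4a and Pde4d, both cAMP-specific and both found in long forms anchored to signalling complexes, held all 7 of the higher probes, and each of their detected probes read higher in BTBR/R on average. In the Pde4 family 12 of 13 probes detected on all 8 arrays had a difference above 0, against 50.3% of all such probes. Another scaling shifts every probe alike and with it this count, which was 11 with arrays scaled by the median, where the median difference of all such probes was -0.03, and 13 with scaling by spike-in probes, where it was 0.11. Of the 13, 7 were higher at an adjusted p below 0.05, against 13.0%, and probes of 1 gene are not independent. Pde4a had 3 probes, and none overlapped between strains. Pde4a probe 3, in the mRNA NM_183408, read 3.33, 3.26, 3.26 and 3.45 in the B6 mice and 3.64, 3.69, 3.76 and 3.70 in the BTBR/R mice. Every BTBR/R mouse was above the highest B6 mouse, with a difference of 0.37 (SE 0.06, limma adjusted p = 0.00173), or 1.29-fold. Pde4a probe 2, also in NM_183408, read 1.98, 1.99, 1.93 and 2.002 in B6 and 2.26, 2.35, 2.25 and 2.17 in BTBR/R. The strains were again separate, by 0.28 (SE 0.05, adjusted p = 0.00336). Pde4a probe 1, from the Ensembl transcript ENSMUST00000140440, read -2.10, -1.70, -1.37 and -1.75 in B6 and -1.28, -1.35, -1.32 and -1.33 in BTBR/R. The B6 mice were spread more widely here (SD 0.30 against 0.03), and the difference of 0.41 (95% interval 0.08 to 0.74) had an adjusted p of 0.0530. Without B6 replicate 3, whose value lay closest to BTBR/R, it was 0.53 with an adjusted p of 0.00892. Without B6 replicate 1, whose value was the lowest, it was 0.29 with an adjusted p of 0.0665. No fit without 1 mouse passed the threshold other than that without B6 replicate 3. Averaged over its 3 probes, Pde4a ranged from 1.07 to 1.27 in B6 and from 1.51 to 1.56 in BTBR/R, a 1.28-fold difference in the mean.

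Pde4d, whose 8 probes spread over 834.9 kb of chromosome 13, had 6 probes detected on all 8 arrays, and each was higher in BTBR/R, by 0.12 to 0.61. Probe 1, at the 5′ end of this stretch and printed above, read -0.97, -1.24, -1.23 and -0.89 in B6 and -0.47, -0.46, -0.54 and -0.43 in BTBR/R. The lowest BTBR/R mouse stood well above the highest B6 mouse, and the difference was 0.61 (SE 0.09, adjusted p = 0.00135), or 1.52-fold. This probe lies in a cDNA clone and not in the RefSeq mRNA that the array assigns to probes 4, 6, 7 and 8. Probe 7, in the mRNA NM_011056, read 0.88, 0.70, 0.76 and 0.72 in B6 and 0.93, 1.01, 0.96 and 0.99 in BTBR/R. Its strains did not overlap and differed by 0.21 (SE 0.05, adjusted p = 0.0187). Probe 8, the one nearest the 3′ end, read -0.76, -0.83, -0.85 and -0.68 in B6 and -0.55, -0.51, -0.65 and -0.43 in BTBR/R. Here too the strains were separate, by 0.25 (SE 0.06, adjusted p = 0.0195).

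The remaining detected Pde4d probes overlapped between strains. Probe 3, in the transcript ENSMUST00000129374, was higher by 0.30 (SE 0.09, adjusted p = 0.0365) and probe 6 by 0.24 (SE 0.08, adjusted p = 0.0475). The splice-spanning probe 4 differed by 0.12 (95% interval -0.10 to 0.35, adjusted p = 0.351). Probes 3 and 6 were close to the threshold, and each missed it in 6 of the 8 fits that left out 1 mouse. For probe 3 the adjusted p was 0.0867, 0.0693 and 0.0875 without B6 replicates 1, 2 and 3, and 0.0831, 0.0629 and 0.0866 without BTBR/R replicates 1, 2 and 4. For probe 6 it was 0.0797, 0.112 and 0.109 without B6 replicates 1, 2 and 4, and 0.0644, 0.0878 and 0.101 without BTBR/R replicates 1, 2 and 3. Without B6 replicate 2 the adjusted p was 0.0528 for probe 7 and 0.0547 for probe 8, and without B6 replicate 3 it was 0.0543 for probe 8. Probe 1 stayed below an adjusted p of 0.05 in every fit that left out 1 mouse. Over the 6 detected probes the mean of Pde4d ranged from -1.27 to -1.15 in B6 and from -0.98 to -0.89 in BTBR/R, a 1.22-fold difference.

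**Figure D3:**
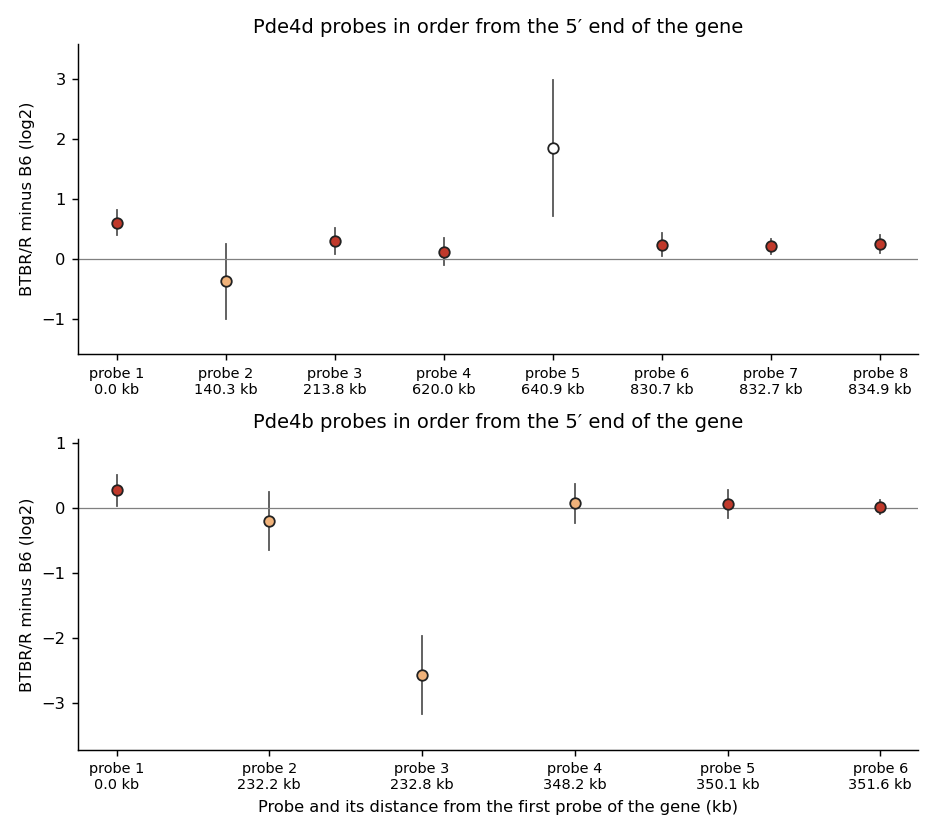
Strain difference (BTBR/R minus B6, log2, 95% interval) of the 8 Pde4d probes and the 6 Pde4b probes, in order from the 5′ end, each with its distance from the first probe in kb; red points were detected on all 8 arrays, orange points on some and open points on none. The detected Pde4d probes lie between 0.12 and 0.61, and the interval of Pde4b probe 3 rests on BTBR/R signals below detection. Its fold is a bound, of 1.83 against the mean of the BTBR/R detection limits and smaller against the highest limit.

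Whether a probe differed from the rest of its own gene was tested as its signal minus the mean of the other detected probes of that gene on the same array. This was possible for 21 member probes of 6 genes. By limma 0 reached a difference of 1 on the log2 scale, against 2.40% of 16198 such probes on the array, 3 of the 21 had an unadjusted p below 0.05, against 31.2%, and 1 of the 21 passed an adjusted p below 0.05 at any size, against 18.9%. That probe was Pde4d probe 1, which exceeded the other Pde4d probes by 0.38 more in BTBR/R than in B6 (SE 0.08, adjusted p = 0.00780). The difference ranged from 0.33 to 0.44 when mice were left out in turn. The 3 genes with signal profiles nearest to it over the 8 mice were Inhbb, an inhibin beta subunit (root mean square distance 0.0539 on the log2 scale), the adhesion receptor Cd44 (0.0586) and the citrate transporter Slc13a5 (0.0710), with differences of 0.59, 0.62 and 0.65. The B6 mean of each probe was subtracted first, so strain differences close to that of Pde4d probe 1 follow from the choice.

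Pde4d probes 2 and 5 were not detected in BTBR/R. Probe 2, from a predicted mRNA, was detected on 3 B6 arrays and no BTBR/R array, with a difference of -0.37 (95% interval -0.998 to 0.26). Probe 5 read -6.89, -7.18, -6.93 and -7.12 in B6 and -5.95, -5.52, -5.60 and -3.62 in BTBR/R, and was not well above background on any array. Its difference of 1.86 (SE 0.48, adjusted p = 0.0192) passed the call rule, yet both groups were below detection and it has no fold change to report. With normexp background correction it was 0.35 (adjusted p = 0.0885).

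Pde4b, a cAMP-specific enzyme expressed in neurons and in immune cells, held the only called member probe that was detected in a strain. Pde4b probe 3, from the Ensembl transcript ENSMUST00000133632, read -2.54, -2.85, -3.03 and -2.92 in the B6 mice and -4.67, -5.73, -5.80 and -5.40 in the BTBR/R mice. It was well above background in every B6 mouse and in no BTBR/R mouse. The fitted difference was -2.57 (SE 0.26, adjusted p = 0.000119), and against the mean of the 4 BTBR/R detection limits B6 was at least 1.83-fold higher. With every signal raised to the highest detection limit of any array the difference was -0.71, a smaller bound. With normexp it was -0.68 (adjusted p = 0.000458), which is under 2-fold. Pde4b probe 2, which starts 232.2 kb from probe 1 where probe 3 starts 232.8 kb from it, read -3.52, -3.43, -3.61 and -4.16 in B6 and -3.63, -3.84, -4.22 and -3.84 in BTBR/R. The strains overlapped, and the difference was -0.20 (95% interval -0.65 to 0.25), with detection on all 4 B6 arrays and 1 BTBR/R array. The 2 probes read different transcripts, and the difference between them was not tested because probe 3 was not detected in BTBR/R.

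The B6 means of Pde4b probes 2 and 4, at -3.68 and -3.67, already lay within the range of the BTBR/R detection limits, so that a drop like that of probe 3 could not have been measured with them. Probes 5 and 6, in the mRNA NM_019840 and 350.1 and 351.6 kb from probe 1, differed by 0.06 (95% interval -0.15 to 0.27) and 0.01 (-0.10 to 0.12). Probe 1 of the same mRNA, at the 5′ end, read -2.11, -2.13, -2.14 and -2.11 in B6 and -2.09, -1.78, -1.61 and -1.92 in BTBR/R. All BTBR/R mice were above all B6 mice, but BTBR/R replicate 1, the 6-month-old mouse, by very little, and the difference of 0.27 (SE 0.10) had an adjusted p of 0.0673. Without that mouse it was 0.36 with an adjusted p of 0.0145, while without BTBR/R replicate 3, the highest, it was below 0.27. Probe 4, from clone AK051102, differed by 0.07 and was detected on 1 BTBR/R array.

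**Figure D4:**
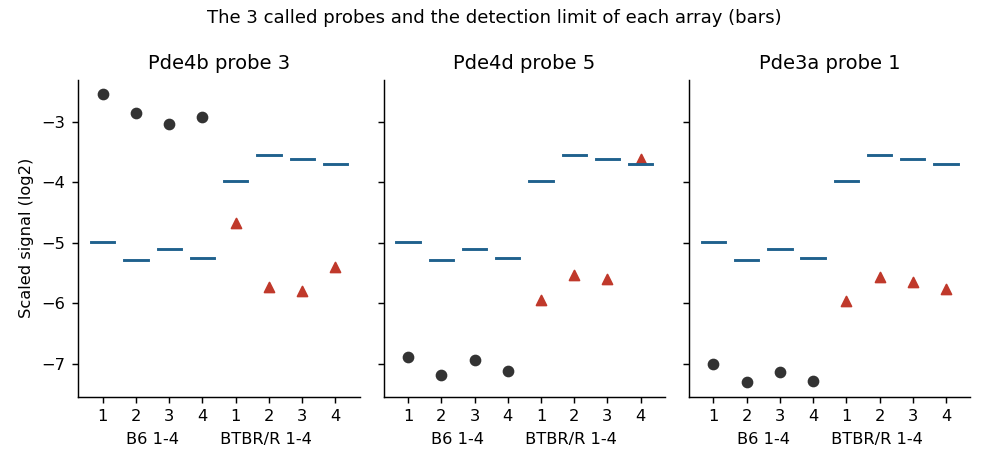
Scaled signal (log2) of the 3 called phosphodiesterase probes on each array (circles B6, triangles BTBR/R); bars give the lowest scaled signal of any detected probe on that array. Pde4b probe 3 is above the bar on the 4 B6 arrays and below it on the 4 BTBR/R arrays, and Pde3a probe 1 is below it on all 8; Pde4d probe 5 of BTBR/R replicate 4 reaches its bar but was not marked as detected.

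Pde4c, the family member with the narrowest known expression, had 2 probes in the mRNA NM_201607 that lie 0.779 kb apart. Probe 2 read 6.30, 6.34, 6.44 and 6.31 in B6 and 6.26, 6.27, 6.24 and 6.20 in BTBR/R. The strains were separate but close, and the difference of -0.10 (95% interval -0.22 to 0.01) had an adjusted p of 0.141. With spike-in scaling its direction was reversed, to higher in BTBR/R. Probe 1 was detected on 1 B6 and 1 BTBR/R array, while probe 2 was detected on all 8. The B6 means of these 2 probes of 1 mRNA were far apart, at -5.14 and 6.35. Why they differ was not tested, and it is not known that probe 2 reads Pde4c alone.

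The other cAMP-specific genes were Pde8a and Pde8b, enzymes with a high affinity for cAMP. Pde8b had 4 probes detected on all 8 arrays. Probe 3, the opposite-strand probe printed above, read -2.04, -2.07, -1.99 and -1.91 in B6 and -2.15, -2.43, -2.32 and -2.25 in BTBR/R. The strains were separate and the difference was -0.28 (SE 0.07, adjusted p = 0.0175), but with spike-in scaling it was -0.17 with an adjusted p of 0.254. By its annotated strand this probe does not read the Pde8b mRNA. The 3 probes on the gene's strand overlapped between strains, with differences of -0.24 (adjusted p = 0.0991), 0.05 (0.725) and -0.12 (0.134). Without B6 replicate 2 the first of these, probe 1, was at -0.31 with an adjusted p of 0.0323. The only Pde8a probe was detected on 2 B6 arrays and 1 BTBR/R array, and its difference of 0.01 carried a 95% interval of -1.68 to 1.69, so a difference of 2-fold in either direction was not detectable.

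The calcium-dependent enzymes Pde1a and Pde1c showed small differences. The 3 Pde1a probes, over 79.2 kb of chromosome 2, overlapped between strains and differed by 0.01, 0.06 and -0.04, with 95% intervals that lay within -0.24 and 0.27. Probe 3 of Pde1a read 3.41, 3.56, 3.54 and 3.74 in B6 and 3.47, 3.41, 3.56 and 3.66 in BTBR/R, and mice of both strains were interleaved. For Pde1c, probe 2 in the mRNA NM_001159953 differed by 0.12 (95% interval -0.07 to 0.31) and probe 1, from clone AK017183, by 0.04 (-0.06 to 0.14). Probes 3 and 4 of Pde1c were detected on all 4 B6 arrays but on 3 and 1 BTBR/R arrays, with differences of 0.07 and 0.11.

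Pde2a and Pde3a are the members whose activity is set by cGMP, in opposite directions. The only Pde2a probe, in the mRNA NM_001143848, read 6.43, 6.57, 6.61 and 6.54 in B6 and 6.60, 6.59, 6.58 and 6.61 in BTBR/R. The BTBR/R values lay inside the B6 range, and the difference was 0.06 (95% interval -0.06 to 0.18, adjusted p = 0.406). Pde3a, best known from heart, vessels and oocytes, was close to background. Of its 4 probes, 3 were detected on no array and 1 on a single BTBR/R array. Pde3a probe 1 was called with a difference of 1.45 (SE 0.11, adjusted p = 2.8e-05), but it was not well above background in either strain, and with normexp the difference was -0.10 (adjusted p = 0.129).

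The 14 other phosphodiesterase genes on the array were set beside the 10 for comparison. Of their 10 probes detected on all 8 arrays, 2 were higher and 2 lower at an adjusted p below 0.05, with a median difference of 0.05. Among 20 probes with detection in all 4 mice of a strain, 4 were called, all lower in BTBR/R, against 4.41% of all such probes. These were the probes of Pde6h, detected in every B6 mouse and no BTBR/R mouse, and the Pde10a probe. For the Pde6h probes any fold is a bound, and with normexp their largest difference was -1.10 (limma adjusted p = 1.4e-06). Pde10a, the phosphodiesterase of striatal projection neurons, read 3.87, 3.96, 3.92 and 3.90 in B6 and 2.94, 2.76, 2.89 and 2.80 in BTBR/R. Every BTBR/R mouse was below every B6 mouse, and the difference of -1.07 (SE 0.06, adjusted p = 2.5e-05) made Pde10a the only phosphodiesterase called by a probe detected on all 8 arrays. With spike-in scaling it was -0.96, just under 2-fold. Markers of striatal projection neurons, all 7 genes of which were detected, had a median of -0.02 over 14 detected probes, with 0 higher and 2 lower at an adjusted p below 0.05, and the mean of the list ranged from 2.09 to 2.21 in B6 and from 2.03 to 2.21 in BTBR/R.

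Genes that make, sense and position cyclic nucleotides were counted in 6 lists. Of 13 detected adenylyl cyclase probes 3 were higher and 2 lower, and of 8 guanylyl cyclase probes 0 were higher and 2 lower, both for the soluble cyclase subunit Gucy1a1 (listed as Gucy1a3). The largest cyclase difference was in Adcy4, at -0.71 (adjusted p = 0.00321). Of 38 probes for effectors (protein kinases A and G with their inhibitors, the Epac exchange factors, cyclic nucleotide-gated channels and Popeye proteins) 8 were higher and 7 lower, with a median of 0.06. Of 17 probes for G protein alpha subunits 2 were higher and 0 lower, of 36 probes for anchors and partners 2 were higher and 4 lower, and of 16 probes for CREB and its coactivators 1 was higher and 0 lower. These counts stand beside the shares of 13.0% and 13.9% over all detected probes.

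In these lists 1 probe detected on all 8 arrays was called, for the channel subunit Hcn3, with means of -3.40 in B6 and -2.40 in BTBR/R and a difference of 1.002 (SE 0.33, adjusted p = 0.0478). This call did not hold in 6 of the 8 fits without 1 mouse, with adjusted p of 0.0972, 0.103, 0.0780 and 0.0917 without B6 replicates 1 to 4 and 0.0996 without BTBR/R replicate 4, and with a difference of 0.68 without BTBR/R replicate 3, and the other 2 detected Hcn3 probes differed by 0.24 and -0.13. Akap7, an anchor of protein kinase A, had 1 probe at -0.999 (SE 0.14, adjusted p = 0.000829), just under the 2-fold limit, and 2 probes of the same mRNA at -0.03 and 0.09. Gnas, the stimulatory alpha subunit, had 1 probe of clone AK082220 at 0.60 (adjusted p = 0.000313), while its 2 probes in the mRNA NM_010309 were at -0.05 and -0.03. Atf1, a transcription factor related to CREB, had 1 probe at 0.35 (adjusted p = 0.00282) and 1 at -0.12, and a further probe named Atf1, at 0.14, is annotated to chromosome X and not to chromosome 15 like the others.

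**Figure D5:**
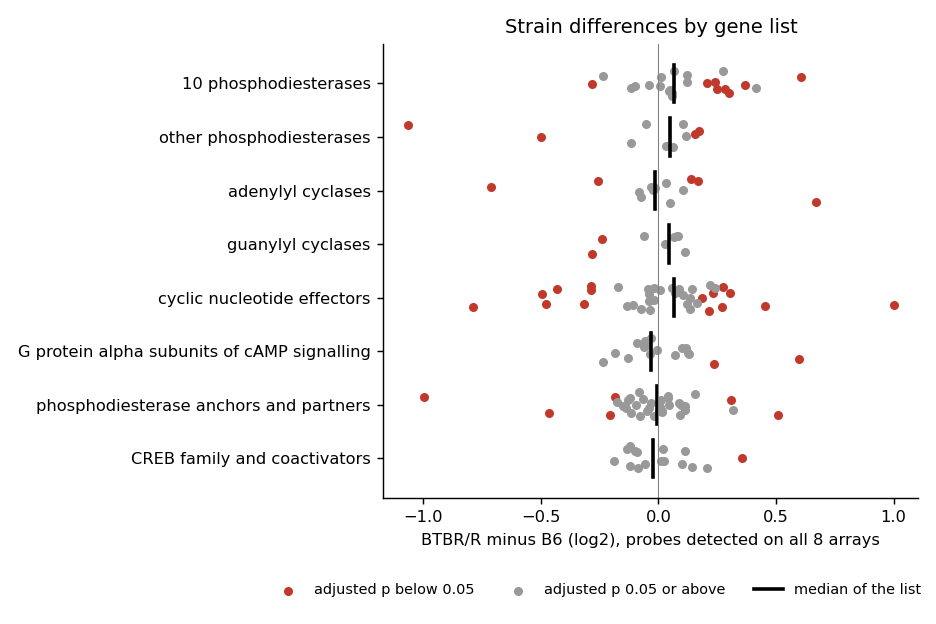
Strain difference (BTBR/R minus B6, log2) of every probe detected on all 8 arrays for the 10 phosphodiesterases and 7 related lists; each point is a probe, red points have an adjusted p below 0.05 and vertical bars are medians. The medians of all 8 lists lie between -0.03 and 0.06, and single probes of Pde10a, Akap7 and Hcn3 reach about 1.

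Markers of the cell types in this tissue were read for the same mice. The median difference of detected probes was -0.01 for neurons, 0.12 for cortical excitatory neurons, 0.14 for interneurons, -0.04 for astrocytes, -0.26 for oligodendrocytes, -0.02 for microglia, -0.08 for endothelium and mural cells and 0.04 for choroid plexus. Markers of cortical excitatory neurons and of interneurons had medians in the same direction as Pde4a and Pde4d. For cortical excitatory neurons 3 of 9 probes were higher and 0 lower at an adjusted p below 0.05, and the mean of the list ranged from 0.62 to 0.84 in B6 and from 0.84 to 0.98 in BTBR/R, with overlap. For interneurons 1 of 10 probes was higher and 1 lower, and the mean of the list ranged from 1.28 to 1.47 in B6 and from 1.503 to 1.64 in BTBR/R, without overlap. At the same threshold 4 of 18 neuron probes were higher and 3 lower, 0 of 12 astrocyte probes were higher and 3 lower, 1 of 12 oligodendrocyte probes was higher and 3 lower, and 1 of 6 microglia probes was higher and 2 lower. For endothelium and mural cells 0 of 9 were higher and 1 lower, and for choroid plexus 0 of 7 were higher and 0 lower. The mean of the oligodendrocyte list ranged from 2.76 to 3.11 in B6 and from 2.61 to 2.81 in BTBR/R, with overlap. All 5 red blood cell probes read lower in every BTBR/R mouse than in any B6 mouse, with differences from -1.36 to -1.003, a median of -1.18 and an adjusted p below 0.05 for 4 of the 5. The mean of the list was 2.75 to 4.52 in B6 and 2.25 to 2.54 in BTBR/R. Their part in the Pde4 results was not tested, and in whole tissue fewer cells of a type and less RNA per cell cannot be told apart.

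The promoter windows of the members were read for the cAMP response element, the sequence bound by CREB, because Pde4 promoters are known targets of cAMP signalling. RefSeq starts on build GRCm38.p6 gave 27 windows of 250 bases for 9 of the 10 genes, all but Pde3a. Pde4c, Pde4d and Pde8a had 1 window each, so other promoters of these genes were not read. Windows of a gene can overlap, as those of Pde8b did, and are then not separate. The full palindrome TGACGTCA was found in 0 of 27 windows and in 1.55% of 32851 windows of all genes. Its shorter form, CGTCA or TGACG on either strand, which the palindrome contains, was found in 4 of 27 (14.8%) and in 17.8% of all windows. The 4 belong to 1 window each of Pde1a, Pde4a, Pde4b and Pde8a.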

How the data were processed

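The labels gave strain, sex, age and tissue, and mice were grouped by strain. The authors deposited the spot intensities of Agilent Feature Extraction 10.7.3.1 for 1-colour arrays, with raw and background levels, a processed signal corrected for both background and spatial trend, and flags for controls, outliers and detection. A table of log2 values made by the authors in GeneSpring differed from log2 of the processed signal by 1 constant on each array, to within 0.01 in 99.97% or more of the probes.

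Control spots and outliers were left out and repeated spots averaged. Processed signals were put on the log2 scale, centred on each array's 75th percentile and compared with limma 3.58.1 (lmFit and eBayes, R 4.3.3), with Benjamini-Hochberg adjustment over 56605 probes, or over 16198 for a probe against the others of its gene. Python 3.11.15, numpy 2.4.6, pandas 2.3.3 and matplotlib 3.10.9 were used otherwise. Tested on simulated data for BTBR/R against B6 over 56605 probes, the fit found 195 of 200 planted differences. For the probe against the others over 16198 probes it found 100 of 101. These counts hold for the planted sizes alone. They do not show how often differences under 2-fold, such as those of the detected member probes, would be found, or how many calls were false.

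The members, gene lists and marker lists were chosen with earlier results of these data known. Named were all members with every probe, from each related list the genes called by a probe detected on all 8 arrays or otherwise the gene with the largest difference, and the 3 nearest profiles to the member probe with the largest difference among those detected on all 8 arrays. Pde6h was named as well, for its called probes detected in B6 only. Names of probes and their mm9 positions came from the array annotation. Of 24 member probes with a RefSeq accession 23 were found in the reference table, each under the same symbol. Alternatives were normexp (offset 50), quantile normalization, other scalings (median, detected probes, 7 spike-in probes), the authors' log2 values, a filter on dim probes, the methods' t-test with Benjamini-Hochberg, limma's trend and robust options, a replicate block and leaving out each mouse.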

Additional observations from a re-analysis of the deposited data

How the results depend on the processing

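Called member probes numbered 3, and 0 with normexp, 0 with every signal raised to the highest detection limit (an alternative chosen after seeing the data), 1 with dim probes left out and 1 with quantile normalization. Detected member probes past the adjusted p numbered 8, 4 with scaling by the median and 5 with the replicate block, and 5 to 7 with each mouse left out in turn. Member probes past the adjusted p against the other probes of their gene numbered 1, and 5 with normexp, where Pde1c probes 1 and 2 and Pde8b probes 2 and 3 joined Pde4d probe 1. Called probes of the related lists, counted among those with detection in all 4 mice of a strain, numbered 7, and 2 with normexp and 2 with the raised floor. Pde3a probe 1 turned to -0.10 with normexp, and Pde4b probe 3 was at -0.71 with the raised floor. Scaling by spike-in probes moved the median difference of all probes from 0.07 to 0.18. Samples with the same replicate number were not paired: their deviations correlated at 0.0028, -0.070, -0.045 and 0.16, and replicate 4 alone correlated best with its own number. Under the replicate block Pde4d probes 3, 6 and 7 missed the threshold, with adjusted p of 0.0541, 0.0911 and 0.0862. Of 26 member probes followed one by one, 26 kept direction and side of the threshold with the authors' log2 values and 25 with the methods' t-test. The Hcn3 call was lost in 7 further settings, among them normexp and quantile normalization. The filter on dim probes did not apply to the comparison within genes, and no slide or scan block was run because all arrays shared 1 of each.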
